A study of Mus musculus with 4 samples.

Results

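The prostaglandin and leukotriene enzymes were examined in 4T1Ch9 tumors from mice given vehicle or the MEK inhibitor trametinib (MEKi). The members were 10 listed eicosanoid enzyme genes, and each probe set that names 1 of them as its only gene was taken. Of the 10 genes, 9 were found among 17097 genes of the arrays, with 14 probe sets, and Ptgs1 was not analysed here. They comprise 5 prostaglandin enzymes (Ptgs2, Ptges, Ptgds, Ptgis and Hpgd) and 4 of the leukotriene and lipoxygenase route (Alox5, Alox5ap, Alox15 and Ltc4s).

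Eicosanoids are short-lived lipid signals made from arachidonic acid, which phospholipases release from cell membranes. Cyclooxygenases turn it into a common precursor that separate synthases convert to prostaglandins or prostacyclin, and Hpgd starts the breakdown of the finished prostaglandins. Lipoxygenases take the other route, in which Alox5, helped by its membrane partner Alox5ap, makes the leukotriene precursor and Ltc4s joins it to glutathione. In tumors, prostaglandin E2 is known as a product of cancer cells and myeloid cells that drives inflammation and restrains T cells, while leukotrienes are made mainly by macrophages, mast cells and granulocytes.

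Total RNA came from tumors of 4T1Ch9 cells, a cherry-tagged murine TNBC line of Balb/c origin. The study used female Balb/c mice of 6 to 8 weeks, and 50000 cells were placed in the mammary fat pad. After 10 days of growth, mice received 7 days of vehicle or of trametinib at 1 mg/kg daily. There were 2 Affymetrix MG-430PM arrays for each label, and no source used here tells if those of 1 label were from separate mice. The p-values then reflect no more than how far these arrays spread, and that spread may be technical.

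Values are log2 expression made by the authors with RMA and quantile normalized, with array medians between 4.98 and 5.14 and 25th percentiles between 3.85 and 3.88, near which a reading is close to the floor. The arrays did not group by label. Across 45037 probe sets, genes not being replicates, Pearson's r reached 0.992 between MEKi 1 and vehicle 2 and 0.978 between MEKi 2 and vehicle 1, but 0.927 between both MEKi arrays and 0.959 between both vehicle arrays. Which tumors were treated is therefore not settled, each array is called by its label, and no direction below is a direction of treatment beyond the labels. The arrays are of bulk tissue, in which fewer cells of a type and less RNA per cell cannot be told apart.

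Ptgs2 and Ptges, which encode the inducible cyclooxygenase and the synthase that forms prostaglandin E2 from its product, were low in MEKi 1 and vehicle 2 and high in the other 2 arrays. Hpgd, whose product inactivates prostaglandin E2, ran the opposite way. These 3 members had the widest ranges, each over 2 log2 units, a range that 8.43% of all genes reached. Ptgs2 read 6.26 and 9.88 in MEKi 1 and MEKi 2, and 8.34 and 6.41 in vehicle 1 and vehicle 2. The arrays labelled MEKi were thus the lowest and the highest of the 4 for Ptgs2, 3.62 log2 units apart, and enclosed both vehicle arrays. A further Ptgs2 probe set had the same order, at 4.00 and 8.80 in MEKi 1 and MEKi 2, and 6.03 and 4.29 in vehicle 1 and vehicle 2, with its lower readings near the floor.

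Ptges read 5.71 and 7.96 in MEKi 1 and MEKi 2, and 8.23 and 6.24 in vehicle 1 and vehicle 2. In contrast to Ptgs2 its highest array was vehicle 1, and MEKi 2 minus vehicle 1 was only −0.27. All 3 Ptges probe sets had vehicle 1 highest and MEKi 1 lowest, over ranges from 2.30 to 2.52. Hpgd read 7.77 and 4.85 in MEKi 1 and MEKi 2, and 5.04 and 7.55 in vehicle 1 and vehicle 2, so each label held 1 high and 1 low array. The second Hpgd probe set lay close to the floor, between 3.78 and 4.38, with its 2 highest readings in the same arrays.

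Relative to vehicle 1, the array labelled MEKi 1 differed by −2.08 for Ptgs2, −2.52 for Ptges and 2.73 for Hpgd on the log2 scale. The array labelled vehicle 2 differed from vehicle 1 by almost as much, with −1.93, −1.99 and 2.51 for the same genes. Between MEKi 2 and vehicle 2 the signs were turned, with 3.47 for Ptgs2, 1.72 for Ptges and −2.70 for Hpgd. Each of these pairs has 1 array on each side and carries no test. Among all genes, 29.5% had both MEKi 1 and vehicle 2 above the other arrays, as Hpgd did, and 30.0% had both below, as Ptgs2 and Ptges did, so the order itself was common. It stayed the same for these 3 genes when arrays were centred on ubiquitous reference genes or on tumor epithelial genes (by their median or their summed level).

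**Figure D1:**
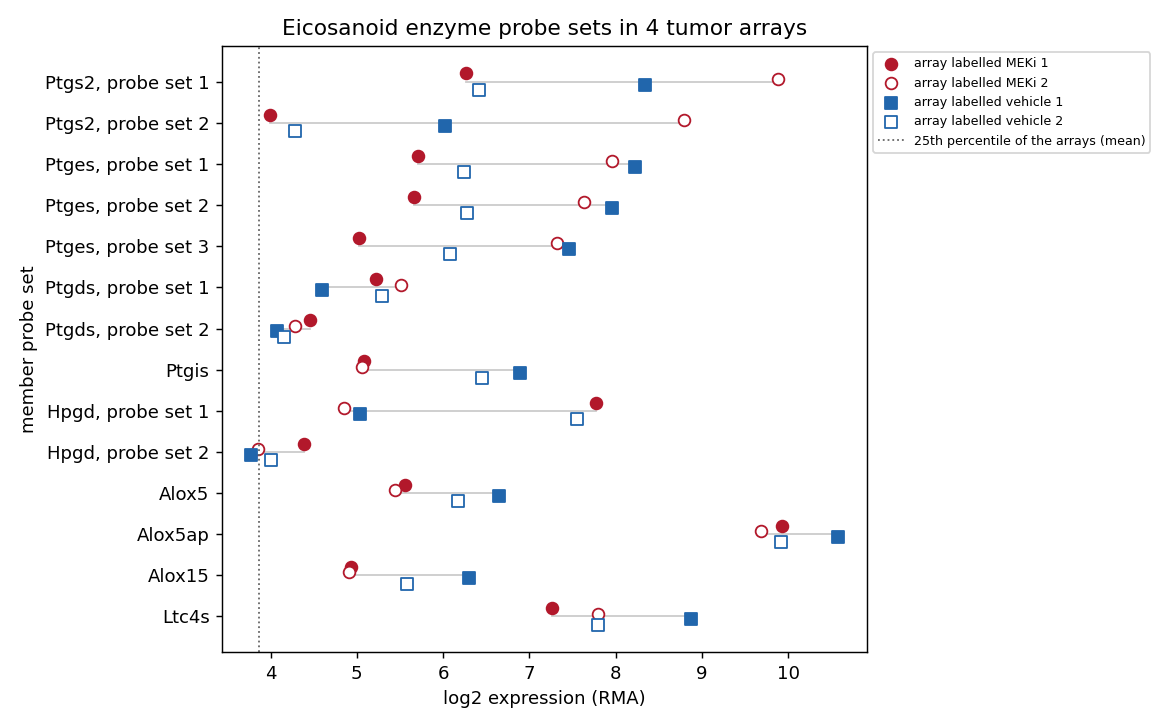
Log2 expression (RMA, horizontal axis) of the 14 member probe sets in each array (circles, MEKi label; squares, vehicle label). Points of a row are set apart vertically so that they can be seen, and the dotted line is the mean 25th percentile of the arrays. Ptgs2 spans 6.26 to 9.88, and Hpgd lies at 7.77 and 7.55 in MEKi 1 and vehicle 2.

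The start regions of these 3 genes are shown because they set the arrays furthest apart, and Ptgs2 and Ptges ran opposite to Hpgd. Each runs from 250 bases before to 50 after the start in RefSeq (GRCm38.p6), 5′ to 3′ on the gene's strand, with capitals for matches to 8 searched motifs on both strands. The core promoter motifs searched were TATAAA, the box that positions the start of transcription, and GGGCGG, the box bound by Sp1. The letters TGACG are the core of the cyclic AMP response element bound by CREB. An E box, to which helix-loop-helix factors bind, was searched as CACGTG. For C/EBP factors, which respond to inflammatory signals, the palindrome TTGCGCAA was used. The site of AP-1, a factor downstream of MEK and ERK signalling, was searched as TGACTCA. A site of NF-kB, which inflammatory cytokines switch on, was searched as GGACTTTCC. ETS factors, which ERK can phosphorylate, were represented by CCGGAAG. Ptgs2 lies on the plus strand at chr1:150099781-150100080, Ptges on the minus strand at chr2:30903248-30903547 and Hpgd on the plus strand at chr8:56294302-56294601.
Ptgs2: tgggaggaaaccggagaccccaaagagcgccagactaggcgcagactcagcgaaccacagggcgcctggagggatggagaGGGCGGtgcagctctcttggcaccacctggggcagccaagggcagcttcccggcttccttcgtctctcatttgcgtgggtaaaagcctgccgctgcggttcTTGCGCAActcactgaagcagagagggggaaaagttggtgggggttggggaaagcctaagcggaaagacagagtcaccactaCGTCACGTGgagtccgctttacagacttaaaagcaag
Ptges: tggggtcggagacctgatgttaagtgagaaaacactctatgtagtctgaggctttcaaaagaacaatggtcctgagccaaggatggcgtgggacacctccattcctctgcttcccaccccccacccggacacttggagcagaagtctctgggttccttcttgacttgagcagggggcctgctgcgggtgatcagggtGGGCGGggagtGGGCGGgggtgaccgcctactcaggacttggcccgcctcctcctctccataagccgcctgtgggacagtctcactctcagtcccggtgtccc
Hpgd: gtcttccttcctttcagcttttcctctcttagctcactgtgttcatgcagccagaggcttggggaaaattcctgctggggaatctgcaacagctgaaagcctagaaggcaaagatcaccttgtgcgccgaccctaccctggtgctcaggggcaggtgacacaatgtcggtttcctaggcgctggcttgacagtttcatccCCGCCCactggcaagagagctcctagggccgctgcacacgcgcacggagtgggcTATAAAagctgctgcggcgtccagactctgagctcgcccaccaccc

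In Ptgs2 the response element core, read on the other strand as CGTCA, overlaps the E box in a single run of capitals. Of 32851 promoters of this length, 20.8% held a match to that core, 7.15% one to the E box and 0.183% one to the C/EBP site. Ptges had 2 of the GGGCGG boxes, while Ptgs2 and Hpgd had 1 each, and 35.7% of promoters held at least 1. Hpgd alone of the 3 had a match to TATAAA, which 13.6% of promoters held. That match, and the overlapping run in Ptgs2, lay after the annotated start. The AP-1, NF-kB and ETS motifs, which 5.2%, 0.344% and 8.86% of promoters held, had no match in these 3 windows. The motifs were chosen after the sequences were seen, so a low share does not make a match here unexpected. Matches are letters only and say nothing of which factor was bound in the tumors.

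Ptgis, which encodes the prostacyclin synthase of vessel walls, separated the labels most clearly among the members on values as deposited. It read 5.08 and 5.06 in MEKi 1 and MEKi 2, and 6.89 and 6.45 in vehicle 1 and vehicle 2. The arrays labelled MEKi lay within 0.02 of each other and below either vehicle array, with MEKi 1 minus vehicle 2 at −1.37. Both MEKi readings were near the medians of those arrays (5.14 and 4.98), and the part of background in them was not tested. Ptgds, the lipocalin-type synthase of prostaglandin D2, varied little, with 5.22 and 5.51 in MEKi 1 and MEKi 2, and 4.60 and 5.29 in vehicle 1 and vehicle 2. Its labels overlapped in this probe set, and in a dimmer one, between 4.08 and 4.46, both MEKi readings were above both vehicle readings by a narrow gap.

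The 4 leukotriene and lipoxygenase genes were each highest in the array labelled vehicle 1. With Ptges and Ptgis, 6 of 9 members were highest there, against 20.1% of all genes. Centred on reference genes, 6 of 9 were, against 15.35% of all genes. Centred on tumor epithelial genes, 0 of 9 were, against 0.205% of all genes. Alox5, the lipoxygenase that starts leukotriene synthesis, read 5.55 and 5.44 in MEKi 1 and MEKi 2, and 6.64 and 6.17 in vehicle 1 and vehicle 2. Alox15, a lipoxygenase found in mouse in resident macrophages and eosinophils, read 4.93 and 4.91 in MEKi 1 and MEKi 2, and 6.30 and 5.58 in vehicle 1 and vehicle 2. For both genes the arrays labelled MEKi were close together and below both vehicle arrays. The MEKi readings of Alox15 were also below the medians of those arrays (5.14 and 4.98).

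Ltc4s, which makes leukotriene C4, read 7.27 and 7.79 in MEKi 1 and MEKi 2, and 8.87 and 7.80 in vehicle 1 and vehicle 2. Vehicle 2, the next array down, differed from vehicle 1 by −1.07, and MEKi 2 and vehicle 2 were practically level. Alox5ap, the partner that presents arachidonic acid to Alox5, read 9.93 and 9.69 in MEKi 1 and MEKi 2, and 10.57 and 9.92 in vehicle 1 and vehicle 2, with the labels overlapping. Vehicle 1 was highest for all 4 and MEKi 2 lowest for Alox5, Alox5ap and Alox15.

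By label, 0 of the 14 member probe sets passed the thresholds of limma (p under 0.05, fold change over 1.5 and adjusted p under 0.1), and 0% of all 45037 tested probe sets did, with 406 at an unadjusted p under 0.05. Both arrays labelled MEKi lay below both labelled vehicle for Ptgis, Alox5, Alox15 and Ltc4s, 4 of 9 members against 10.2% of all genes, and 0 of 9 members against 0.193% with arrays centred on tumor epithelial genes. For Ltc4s that rested on a gap of less than 0.01 on values as deposited. With arrays centred on reference genes, 5 of 9 members had both MEKi arrays below both vehicle arrays, against 13.8% of all genes. Ptgis had a log2 fold change of −1.60 (SE 0.23, 95% CI −2.25 to −0.95), which is 3.03-fold lower in MEKi, with an unadjusted p of 0.00277 and an adjusted p of 1 by limma. Alox15 had a log2 fold change of −1.02 (SE 0.31, 95% CI −1.89 to −0.14), and Alox5 one of −0.91 (SE 0.24, 95% CI −1.59 to −0.23). Both had an adjusted p of 1 by limma, with unadjusted p of 0.0330 and 0.0215. These were the 3 members of 9 with an unadjusted p under 0.05, against 1.23% of all genes. Of the 3, Ptgis alone kept such a p with a variance trend on intensity (Alox5 0.0746, Alox15 0.0572) or with unmoderated variances (Alox5 0.0652, Alox15 0.106), and Alox5 and Alox15 also lost it without MEKi 1, MEKi 2 or vehicle 1 (0.0591 to 0.0972).

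The other members were within their spread by label. Ltc4s had a log2 fold change of −0.80 (SE 0.47), Alox5ap −0.44 (SE 0.30), Ptges −0.40 (SE 1.11) and Ptgds 0.42 (SE 0.32), each with an adjusted p of 1 by limma. Ptgs2 gave 0.69 (SE 1.51) and Hpgd 0.01 (SE 1.42, 95% CI −4.03 to 4.06), so that large changes in either direction lie within the intervals. Relative to vehicle 1, by single arrays and with no test, 6 of 9 members were more than 1 log2 unit lower in MEKi 1 (8.74% of all genes), 4 of 9 in MEKi 2 (4.34%) and 3 of 9 in vehicle 2 (5.81%). Vehicle 1 was the highest array for 6 of 9 members, so these counts partly restate that order. By the same margin 1 of 9 was higher in each of MEKi 1 (6.67%), MEKi 2 (2.26%) and vehicle 2 (5.84%). Relative to vehicle 2, 1 of 9 was lower in MEKi 1 (0.831%) and 0 of 9 higher (0.287%). In MEKi 2, 2 of 9 were lower than in vehicle 2 (9.15%) and 2 of 9 higher (8.25%). The median log2 fold change by label over the 9 members was −0.44, and over all genes 0.01. Centred on ubiquitous reference genes, these medians were −0.53 and −0.08, and of the members only Hpgd changed sign. The signs depend on which genes the scaling uses, since centring each array on tumor epithelial genes moved the median of all genes from 0.01 to 1.54, and Ptges, Alox5, Alox5ap, Alox15 and Ltc4s became positive while Ptgis was at −0.07. Under that centring 8 of 9 members, and 96.4% of all genes, were highest in MEKi 2. That centring uses the median of the epithelial genes. Centred on their summed level instead, chosen after seeing the data, the median of all genes moved to 1.01, 6 of 9 members and 87.9% of all genes were highest in MEKi 1, Alox15 was at −0.01 and Ptgis at −0.60.

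**Figure D2:**
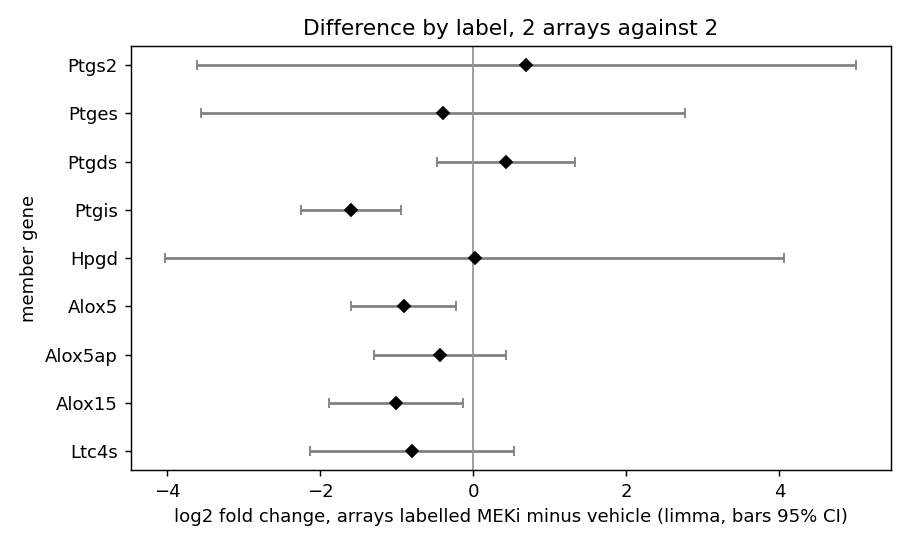
Log2 fold change of each member gene between the 2 arrays labelled MEKi and the 2 labelled vehicle (horizontal axis, negative is lower in MEKi). Diamonds are limma estimates on values as deposited and bars are 95% confidence intervals. Ptgis at −1.60, Alox15 at −1.02 and Alox5 at −0.91 have intervals below 0 on this scaling, with an adjusted p of 1. Those of Alox5 and Alox15 reach past 0 with a variance trend (upper bounds 0.13 and 0.05) or unmoderated variances, and those of all 3 when arrays are centred on tumor epithelial genes. That centring moved the median of all genes to 1.54 and gave these 3 genes the same SE of 1.23, so it does not bear on them singly. Ptgs2 and Hpgd have the widest intervals shown.

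Other genes of the pathway were taken from 6 lists, of which 48 of 56 genes were measured. None passed by label with limma, and 0 of 48 had an unadjusted p under 0.05, but 18 of 48 ranged over at least 1 log2 unit, as did 25.4% of all genes. Pla2g4a, the cytosolic phospholipase that supplies the arachidonic acid for both routes, had the same order of arrays as Ptgs2, with 8.59 and 10.59 in MEKi 1 and MEKi 2, and 9.55 and 8.61 in vehicle 1 and vehicle 2. Pla2g2d, a secreted phospholipase of lymphoid tissue, ran the other way and read 9.49 and 6.03 in MEKi 1 and MEKi 2, and 6.52 and 9.14 in vehicle 1 and vehicle 2. Ptges3, a co-chaperone also described as a prostaglandin E synthase, stayed between 11.47 and 11.81. Tbxas1, the thromboxane synthase of platelets and macrophages, was highest in vehicle 1 at 9.13, with the other arrays between 7.36 and 7.87.

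Slco2a1, a transporter that takes prostaglandins up for breakdown, read 9.04 and 10.51 in MEKi 1 and MEKi 2, and 11.41 and 10.13 in vehicle 1 and vehicle 2. It did not share the order of Hpgd, the enzyme that acts after uptake. Ephx2, the soluble epoxide hydrolase, was low only in MEKi 2, at 3.73 against 6.81 to 7.10 in the other arrays. On the leukotriene side, Lta4h, which makes leukotriene B4, hardly moved (9.95 to 10.24), and Mgst2, which can also make leukotriene C4, was highest in MEKi 2 at 10.48 and lowest in MEKi 1 at 9.17.

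Receptor genes differed in their order of arrays. Ptger4, a prostaglandin E2 receptor found on lymphocytes and myeloid cells, read 10.08 and 8.55 in MEKi 1 and MEKi 2, and 8.91 and 10.01 in vehicle 1 and vehicle 2. Tbxa2r, the thromboxane receptor, read 8.30 in MEKi 1 and 8.29 in vehicle 2, and 5.28 in both other arrays. These 2 receptor genes were high in the arrays where Hpgd was high and Ptgs2 and Ptges low. Cysltr1, a receptor for leukotriene C4 and its products, had the order of its ligand's synthase Ltc4s at its top, with 8.01 in vehicle 1, and read 5.67 in MEKi 1, 7.19 in MEKi 2 and 6.52 in vehicle 2. Fpr2, which binds lipoxins and many peptides, lay between 7.36 and 8.65, with MEKi 2 highest.

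**Figure D3:**
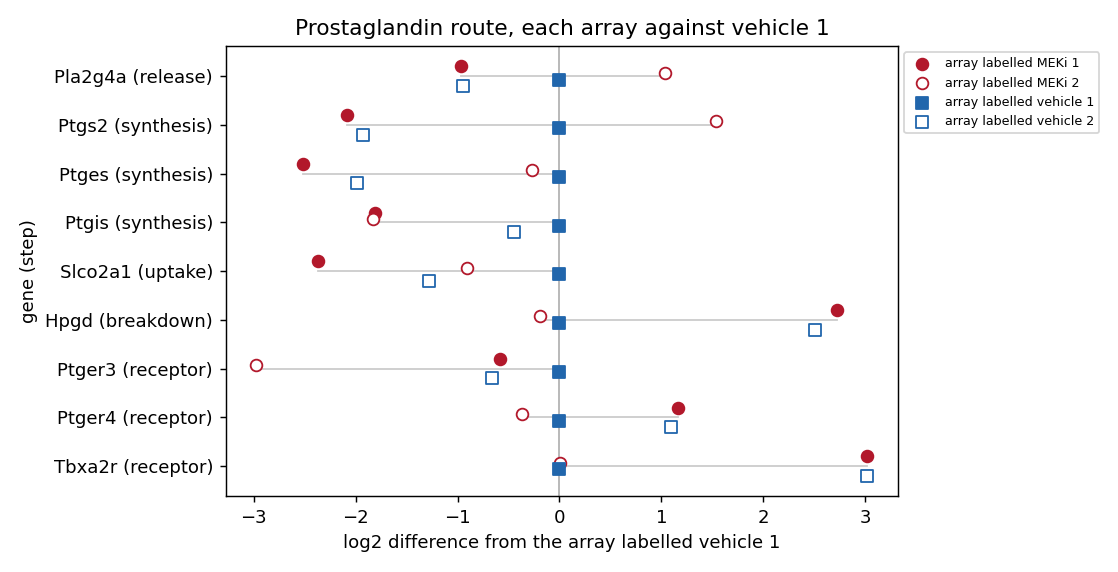
Log2 difference of each array from the array labelled vehicle 1 (horizontal axis) for 9 genes of prostaglandin release, synthesis, uptake, breakdown and sensing, on values as deposited. Each array is a point, round for the MEKi label and square for the vehicle label. Ptgs2 and Ptges sit at −2.08 and −2.52 in MEKi 1, and Hpgd at 2.73.

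Cell type markers also differed between the arrays, some in an order like that of an enzyme and some not. Macrophage and monocyte markers, like the leukotriene genes, were highest in vehicle 1 for 11 of 12 genes, with medians of 9.66 and 10.39 in MEKi 1 and MEKi 2, and 10.92 and 10.01 in vehicle 1 and vehicle 2. The log2 of their summed level was 14.06 and 14.58 in the arrays labelled MEKi and 15.28 and 14.50 in those labelled vehicle, and none of the 12 was at or below the 25th percentile in every array. The macrophage median and sum were lowest in MEKi 1, as Ltc4s was, whereas Alox5, Alox5ap and Alox15 were lowest in MEKi 2. Mast cell markers were highest in vehicle 1 for 7 of 9 genes, with log2 summed levels of 10.86 and 9.03 in MEKi 1 and MEKi 2 and of 12.38 and 10.95 in vehicle 1 and vehicle 2. The mast cell protease gene Cpa3 read 8.63 and 4.61 in MEKi 1 and MEKi 2, and 10.18 and 8.66 in vehicle 1 and vehicle 2. The summed level of mast cell markers was thus far lower in MEKi 2 than in MEKi 1, although the marker Kit read 8.09 in both. Alox5, Alox15 and Ltc4s differed by at most 0.53 between those arrays. Neutrophil markers ran the other way by label for 6 of 9 measured genes, whose MEKi readings were both above both vehicle readings, against 11.0% of all genes. At an unadjusted p under 0.05, 4 of 9 were higher in MEKi (adjusted p of 1 by limma), against 1.23% of all genes in either direction. The log2 summed levels of all 9 neutrophil markers were 11.90 and 12.76 in the MEKi arrays and 11.69 and 10.89 in the vehicle arrays. S100a8, a neutrophil marker, read 9.99 and 11.10 in MEKi 1 and MEKi 2 against 6.17 and 7.70 in vehicle 1 and vehicle 2. However, 2 of 9 neutrophil markers had a lower mean in MEKi. Of these, Mmp9 was lower in both MEKi arrays, at 7.37 and 8.89 against 11.23 and 9.39 in vehicle 1 and vehicle 2. Alox5, which neutrophils also express, was lower in both MEKi arrays. Eosinophil markers were low in all arrays, with medians between 3.64 and 3.91 for 5 genes.

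Adipocyte markers, of which 5 of 5 were highest in vehicle 1, had log2 summed levels of 12.39 and 11.10 in MEKi 1 and MEKi 2 and of 13.25 and 13.08 in vehicle 1 and vehicle 2. Like Ptgis they were higher in both vehicle arrays, but unlike Ptgis they also set MEKi 1 above MEKi 2. Blood vessel markers had summed levels of 11.21 and 11.73 in the MEKi arrays and 11.87 and 11.27 in the vehicle arrays, an order that Ptgis did not share. Smooth muscle and pericyte markers, also of the vessel wall, had summed levels of 11.81 and 10.32 in the MEKi arrays and 11.91 and 11.91 in the vehicle arrays, and fibroblast markers 13.66 and 12.73 against 14.04 and 13.83. Both sums were lower in both MEKi arrays, as Ptgis was, with MEKi 2 far below MEKi 1. Singly, 2 of 5 smooth muscle and 4 of 7 fibroblast genes had both MEKi arrays below both vehicle arrays, against 10.2% of all genes. B cell markers, with medians of 9.53 and 4.18 in MEKi 1 and MEKi 2, and 4.12 and 9.31 in vehicle 1 and vehicle 2, and T cell markers, with 9.95, 5.95, 6.51 and 9.88 in the same order, followed the arrays of Hpgd, Ptger4 and Tbxa2r. Markers of high endothelial venules and lymph node stroma did so over the widest range, with medians of 11.53 and 3.82 in MEKi 1 and MEKi 2 and of 3.73 and 11.28 in vehicle 1 and vehicle 2. Glycam1, a mucin of those venules, read 12.27 and 12.05 in MEKi 1 and vehicle 2, and 3.50 and 3.73 in MEKi 2 and vehicle 1. Tumor epithelial markers had medians of 8.19, 6.04, 8.79 and 8.50 in MEKi 1, MEKi 2, vehicle 1 and vehicle 2, but log2 summed levels of 12.16, 13.07, 14.08 and 13.16, so MEKi 2 was lowest by the median and MEKi 1 by the sum. Krt8, a keratin of simple epithelium, read 10.54 and 12.11 in MEKi 1 and MEKi 2, and 12.92 and 11.75 in vehicle 1 and vehicle 2. Krt18 had the same order, whereas every other tumor epithelial marker was lower in MEKi 2 than in MEKi 1. The part of these cells in the enzyme levels was not tested.

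**Figure D4:**
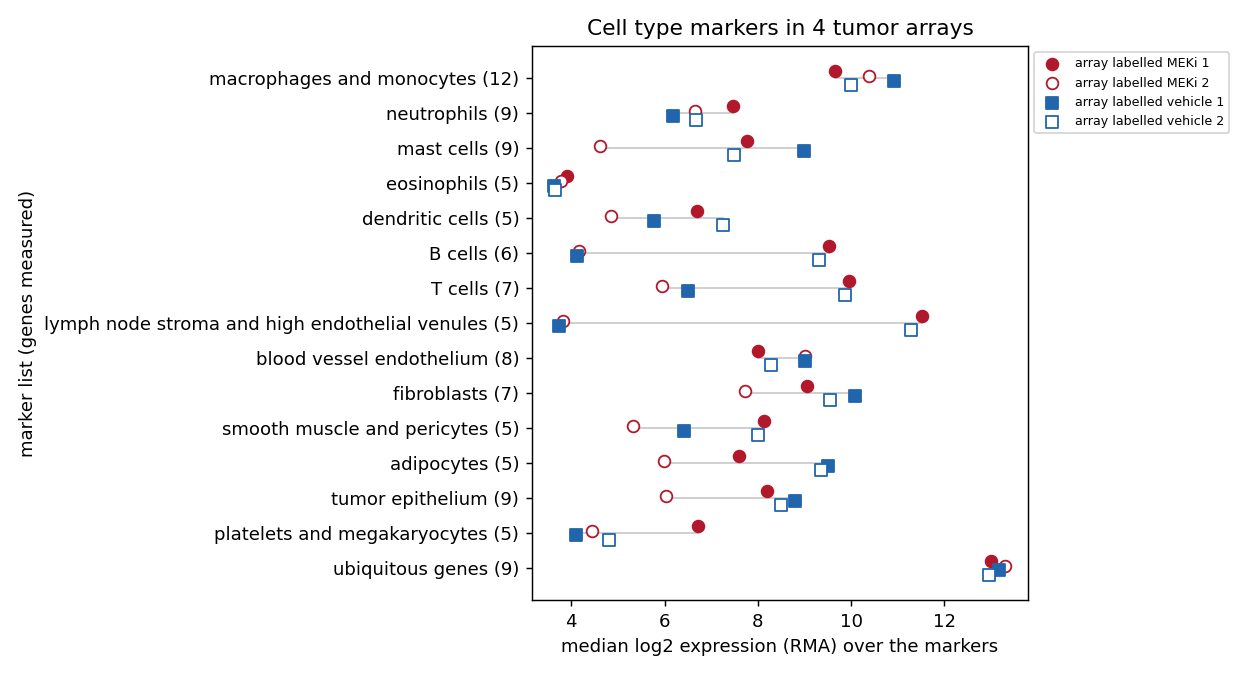
Median log2 expression (RMA, horizontal axis) of marker genes of 14 cell types and of ubiquitous genes by array, and gene numbers in parentheses. Points are round for the MEKi label and square for the vehicle label. Macrophage markers are highest in vehicle 1 at 10.92, and B cell markers lie at 9.53 and 9.31 in MEKi 1 and vehicle 2.

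Genes whose pattern over the 4 arrays was nearest to a member were sought by the distance between mean-centred log2 profiles, for the 7 members that ranged over at least 1 log2 unit. With 4 arrays many genes lie close, so the neighbours are a description. Ptgs2 was nearest to Cxcl1, a neutrophil-attracting chemokine (distance 0.19), Spsb4 (0.25) and Spry1, a feedback inhibitor of receptor tyrosine kinases (0.26). Ptges was nearest to Foxc2, Klra2 and Galnt15 (0.09 to 0.14), and Hpgd to Vamp1, Kcne4 and Mef2c (0.04 to 0.15). Ptgis lay nearest to Adig and Gpd1, both abundant in fat cells, and to Stard8 (0.19 to 0.25). The neighbours were Hoxb2, Pcyt1b and Chpt1 for Alox5, Peli2, Gna14 and Bche for Alox15, and Slc39a4, Rab3il1 and Metrnl for Ltc4s, at distances between 0.03 and 0.19.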

How the data were processed

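The authors deposited 1 log2 expression value for each of 45141 probe sets and 4 arrays, made with RMA and quantile normalized with the AFFY package in R. Versions of RMA and AFFY, filters and pooling are not given in the sources used here. Quantile normalization gives all arrays like distributions, so a change shared by most genes would not be seen. Without 104 controls, 45037 probe sets entered the test. The platform's gene table names 1 symbol for 28898 of them, several for 551 and none here for 15588, and Entrez identifiers matched 28689 to the mouse gene table (GRCm38.p6). A gene with more than 1 probe set was represented by that of highest mean.

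The comparison by label used lmFit and eBayes of limma 3.58.1 (R 4.3.3, two-sided), with Benjamini-Hochberg adjustment over all tested probe sets. The number of arrays limits the precision. The fit was tested on simulated data, with a pass required only at a spread far smaller than that of Ptgs2 or Hpgd. That pass does not tell how large a change these arrays could call. Members, gene lists and tests were chosen with earlier results of these data known. Named were all members, of each pathway list the gene with the highest mean and that with the widest range (and any called), and the 3 genes nearest to a member. Further pathway and marker genes (Ptger3 in a plot, Cpa3, S100a8, Mmp9, Glycam1, Krt8 and Krt18) were chosen after their values were seen. Other settings tried were a stricter adjusted p of 0.05, a trend of variance with intensity, unmoderated variances, leaving out the dimmest 0.25 of probe sets, 2 centrings, blocking on replicate number, omitting each array, genes in place of probe sets and the mean of a gene's probe sets. Motifs were chosen after the sequences were seen. Promoters for 7 of the 10 listed genes were matched by symbol. Python 3.11.15, numpy 2.4.6, pandas 2.3.3 and matplotlib 3.10.9 were used for tables and figures.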

Additional observations from a re-analysis of the deposited data

How the results depend on the processing

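No alternative called a member. Other probe sets were called only with arrays centred on the summed level of tumor epithelial genes, added after seeing the data, where 7 passed, all higher in MEKi. That centring moved the median of all genes to 1.01, so the direction of those 7 cannot be told apart from the shift. Centred on tumor epithelial genes, the median log2 fold change of the members turned from −0.44 to 1.10, with 1.13 for Ptges, 0.62 for Alox5, 1.10 for Alox5ap, 0.52 for Alox15 and 0.73 for Ltc4s. By that summed level the members' median was 0.57, with 0.60 for Ptges, 0.0932 for Alox5, 0.57 for Alox5ap and 0.20 for Ltc4s. Centred on reference genes, Hpgd turned to −0.0795. These centrings add a constant to each array, so differences between genes are the same.

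With each array left out in turn, the median of the members ran from −1.15 to −0.27, and without MEKi 2 or vehicle 2 it was −1.003 or −1.15. Ptgs2 ran from −1.12 to 2.50, Ptges from −1.52 to 0.72 and Hpgd from −1.44 to 1.47, so their signs by label rest on single arrays. Ptgs2 was −1.12 without MEKi 2 and −0.27 without vehicle 2. Ptges was 0.72 without MEKi 1 and 0.60 without vehicle 1, and Hpgd was −1.44 without MEKi 1 and −1.24 without vehicle 1. Ptgis (−1.82 to −1.38), Alox5 (−1.15 to −0.67), Alox15 (−1.37 to −0.66), Alox5ap (−0.76 to −0.11), Ltc4s (−1.34 to −0.27) and Ptgds (0.08 to 0.77) kept their sign. In these fits a lone array is assumed to vary like the other label.

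The labels share replicate numbers, but deviations of same-numbered arrays correlated at −0.764, so the numbers do not pair them. With the replicate block 0 probe sets and 0 members were called, and with the pairing crossed, added after seeing the data, 0. Ptgis kept an unadjusted p under 0.05 in each fit except those centred on tumor epithelial genes, and 1 to 4 member probe sets had one over all fits.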
